A study of Mus musculus with 16 samples.

Results

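The cholesterol synthesis and sterol sensing genes Insig1, Srebf2, Hmgcs1, Idi1, Fdft1, Sqle, Cyp51 and Dhcr7, were followed across all 16 arrays of a test of single-cell cDNA amplification. They are 8 of 18193 genes named on the array and hold 19 of its 45037 probe sets (controls not counted), namely every probe set whose annotation gives one of them as the only gene. The 8 genes were chosen by their place in the pathway and on earlier results of the same arrays, among them the loss of Insig1 signal on some amplified arrays. Their amplified against nonamplified values are therefore a description and carry no test of their own. The amplified group (n = 8) started from 10 pg of total RNA of E14tg2a mouse embryonic stem cells, a dilution to the single-cell level. Each array had its own PCR amplification by the V1V3 method. The nonamplified group (n = 8) was labelled from 5 µg of the same RNA without amplification. Both groups carry RNA of a single line with no genetic or drug treatment, and the replicates are technical. A difference between groups is thus one of method, and the spread between arrays is technical spread.

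Cells make cholesterol from acetyl-CoA through mevalonate, isoprenoid diphosphates, squalene and lanosterol. The enzymes of this route are controlled together by SREBP-2, a membrane-bound transcription factor made from Srebf2. When sterols are scarce the escort protein SCAP carries it from the endoplasmic reticulum to the Golgi, where it is cut free. When sterols are plentiful Insig proteins hold SCAP back, and Insig1 is itself a target of SREBP-2, which closes a feedback loop. Rapidly dividing cells such as embryonic stem cells use the route for new membranes.

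SREBP-2 binds sterol regulatory elements in promoters, often beside a CCAAT box bound by NF-Y. RefSeq promoter windows (GRCm38.p6, 250 bases before to 50 after the start) were at hand for 6 of the 8 genes, without Sqle and Fdft1. The 8-letter core TCACCCCA, searched on both strands, occurred in 1.56% of 32851 windows. It occurred in 2 of the 8 windows of the 6 genes, belonging to Hmgcs1 and Srebf2. The short windows around these matches are shown because they carry the element through which the genes are known to be controlled, with the core in capitals. They lie on the plus strand at chr13:119690188-119690247 and chr15:82147081-82147140, and the cores begin 137 and 162 bases before the start.
Hmgcs1: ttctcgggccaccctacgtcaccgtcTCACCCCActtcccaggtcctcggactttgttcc
Srebf2: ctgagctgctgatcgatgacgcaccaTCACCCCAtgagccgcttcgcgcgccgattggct
The letters CCAAT, on either strand, occurred in 6 of these 8 windows, with a match for each of the 6 genes, against 37.4% of all windows. These matches describe the genes and have no bearing on the comparison of the groups, which share their RNA.

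On the arrays as a whole, median intensity was 33.9 to 36.7 on amplified and 49.7 to 53.8 on nonamplified arrays. The lowest value of the table, an intensity of 1, was held by 6.77% to 8.36% of probe sets on amplified arrays and by 2.08% to 3.22% on nonamplified arrays. The scaling between arrays is not given in the sources used here. The 5 embryonic stem cell markers averaged 3155 to 10475 on amplified and 3912 to 8422 on nonamplified arrays, and on amplified arrays limma called 3 of them higher and 1 lower. That last one was Pou5f1, the Oct4 transcription factor gene, with 3155 ± 464 on amplified and 4159 ± 213 on nonamplified arrays (SD, n = 8 each). Of 6 fibroblast markers 4 were tested, and they moved both ways. Postn averaged 82.0 ± 33.7 on amplified and 31.1 ± 6.66 on nonamplified arrays and was called higher (SD, n = 8 each). Its nonamplified mean lay under the filter intensity of about 33.7 given below. Postn was thus tested only through its amplified arrays, and nothing is read from its call. Col1a2 averaged 42.0 ± 15.3 on amplified and 82.0 ± 8.57 on nonamplified arrays and was called lower (SD, n = 8 each), while Col1a1 and Pdgfra were not called. Of 4 tested hepatocyte markers Apoa1 and Cyp7a1 were called higher, and Alb and Ttr were not called. Apoa1 averaged 420 ± 32.8 on amplified and 84.9 ± 48.3 on nonamplified arrays at 1419232_a_at (SD, n = 8 each), but another of its probe sets, 1419233_x_at, was called lower (log2 difference −0.55). Since every array carried the same RNA, these markers do not describe a difference in cells.

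Log2 differences below are amplified minus nonamplified on the scale log2(intensity + 16), which understates changes of dim probe sets. A probe set was tested if its mean over the 16 arrays lay above the 40th percentile, and called if limma gave an adjusted p under 0.05 over all 27022 tested probe sets. Of the 19 probe sets of the 8 genes, 17 were tested. Of these, 6 were called lower and 0 higher in the amplified group, 4 of them without overlap between groups. With unadjusted limma p-values under 0.05 the counts were 7 lower and 0 higher. Over all tested probe sets 32.8% were called lower, 24.7% higher, and 33.6% had groups that did not overlap. As the 8 genes were chosen with this contrast known, nothing is read from these counts. The median log2 difference was −0.68 over the 17 probe sets and −0.17 over all tested probe sets.

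**Figure D1:**
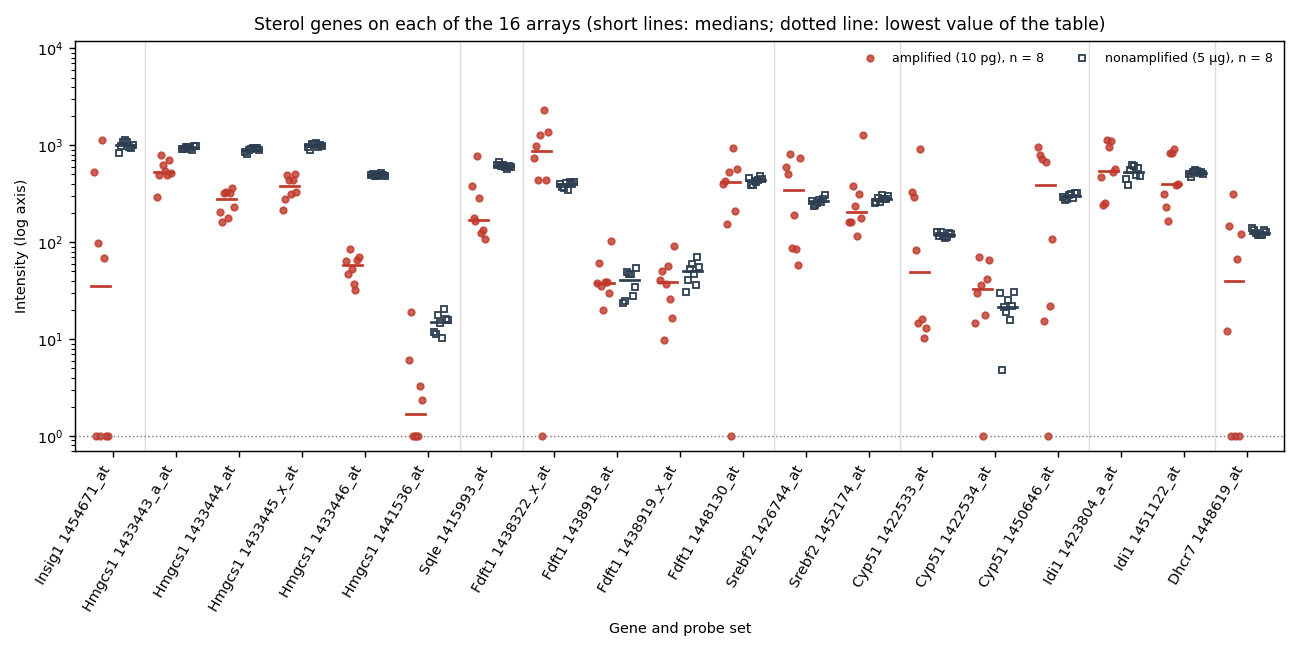
Intensity (log axis) of the 19 probe sets of the 8 genes, with amplified arrays (filled red circles) left of nonamplified arrays (open squares), 1 point per array, short lines at the medians and a dotted line at the lowest value of the table. The amplified arrays spread wider than the nonamplified arrays at each probe set, and amplified arrays of Insig1, Fdft1, Cyp51, Dhcr7 and the dim Hmgcs1 1441536_at reach down to an intensity of 1.

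Insig1, the sterol-responsive anchor of SCAP, was erratic after amplification and steady without it. Its single probe set, 1454671_at, ranged from 1 to 1132 on amplified arrays (median 35.1) and from 837 to 1138 on nonamplified arrays (median 998). Amplified replicate 5 alone lay within the nonamplified range. Replicate 1 followed with 530, replicates 3 and 6 had 97.6 and 69.2, and replicates 2, 4, 7 and 8 were listed at 1. The log2 difference was −3.88 (SE 0.82), and it lay between −4.46 and −3.59 when any 1 array was left out. With 4 amplified arrays at the lowest value its size depended on the pseudocount, being −5.47 with 1 and −2.81 with 64. Its SD on the log2 scale was 2.46 over the amplified and 0.13 over the nonamplified arrays (n = 8 each). Among all tested probe sets, 98.0% had a smaller SD over the amplified arrays. The loss of Insig1 signal was among the results on which the genes were chosen, so nothing is read from this rank.

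Srebf2, the source of SREBP-2, had amplified values far to both sides of its nonamplified level. Probe set 1426744_at ranged from 57.8 to 810 on amplified arrays (median 349) and from 234 to 305 on nonamplified arrays (median 264). Of the 8 amplified arrays, 4 lay above every nonamplified array, 4 below, and 0 within their range. Probe set 1452174_at ranged from 116 to 1265 on amplified arrays (median 207) and from 254 to 304 on nonamplified arrays (median 277), with 3 amplified arrays above that range and 5 below. The log2 differences were −0.032 (SE 0.49) and −0.087 (SE 0.35), small beside SDs of 1.45 and 1.03 over the amplified arrays.

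Hmgcs1, the cytosolic HMG-CoA synthase that opens the mevalonate route, was lower at every tested probe set. Its amplified and nonamplified values did not overlap at any of these 4. Probe set 1433443_a_at ranged from 293 to 792 on amplified arrays (median 529) and from 897 to 989 on nonamplified arrays (median 944), a log2 difference of −0.79 (SE 0.15). For 1433445_x_at the ranges were 217 to 508 on amplified arrays and 897 to 1051 on nonamplified arrays, with a difference of −1.40 (SE 0.15). For 1433444_at the ranges were 163 to 363 on amplified arrays and 816 to 948 on nonamplified arrays, with a difference of −1.75 (SE 0.15). Probe set 1433446_at ranged from 31.9 to 85.0 on amplified arrays (median 58.4) and from 482 to 512 on nonamplified arrays (median 491), with a difference of −2.85 (SE 0.13; −2.22 with a pseudocount of 64). The loss thus differed by 2.06 on the log2 scale between probe sets of this gene, more than the spread of any of them. This gap was smaller under some other settings. Probe sets 1433443_a_at and 1433446_at had −1.36 and −2.90 under quantile normalization, and −0.73 and −2.22 with a pseudocount of 64. The fifth probe set, 1441536_at, was dim and not tested, from 1 to 19.0 on amplified and 10.2 to 20.5 on nonamplified arrays.

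Idi1, which converts isopentenyl diphosphate into its reactive isomer, scattered around its nonamplified level. Probe set 1451122_at ranged from 165 to 913 on amplified arrays (median 395) and from 472 to 553 on nonamplified arrays (median 523). On amplified replicates 4, 5 and 6 it read 831 to 913, above every nonamplified array, and the other 5 lay below all of them. Probe set 1423804_a_at ranged from 244 to 1128 on amplified arrays (median 547) and from 393 to 625 on nonamplified arrays (median 528). The log2 differences were −0.25 (SE 0.30) for 1451122_at and 0.12 (SE 0.30) for 1423804_a_at.

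Fdft1, squalene synthase, commits isoprenoids to sterols, and its main probe sets were present on 7 amplified arrays and missing on 1. Probe set 1448130_at ranged from 1 to 948 on amplified arrays (median 414) and from 390 to 482 on nonamplified arrays (median 435), a log2 difference of −0.68 (SE 0.61). Probe set 1438322_x_at ranged from 1 to 2294 on amplified arrays (median 865) and from 349 to 418 on nonamplified arrays (median 398). Both were listed at 1 on amplified replicate 5, while 1438322_x_at exceeded every nonamplified array on the other 7. Its log2 difference of 0.49 (SE 0.73) was not called, and without amplified replicate 5 it was 1.21, which was called higher. The dim probe sets 1438918_at and 1438919_x_at had differences of 0.12 (SE 0.21) and −0.30 (SE 0.25), with overlapping groups. With quantile normalization or each array centred on its median, 1438918_at was called higher (0.51 and 0.53).

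Sqle, squalene epoxidase, which adds the oxygen that allows ring closure, was lower on most amplified arrays. Probe set 1415993_at ranged from 108 to 785 on amplified arrays (median 171) and from 568 to 673 on nonamplified arrays (median 609). Amplified replicate 4 lay above all nonamplified arrays and the other 7 below all of them. The log2 difference was −1.42 (SE 0.31), with an SD of 0.92 over the amplified and 0.069 over the nonamplified arrays (n = 8 each).

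Cyp51, the demethylase that acts on lanosterol, gave an all-or-little pattern. Probe set 1450646_at ranged from 1 to 963 on amplified arrays (median 390) and from 275 to 322 on nonamplified arrays (median 298). Probe set 1422533_at ranged from 10.3 to 907 on amplified arrays (median 49.6) and from 110 to 128 on nonamplified arrays (median 119). On amplified replicates 1, 2, 3 and 5 the first of these read 672 to 963, more than any nonamplified array, and on replicates 4, 6, 7 and 8 it read 1 to 109, less than any of them. Log2 differences were −0.82 (SE 0.82) and −0.49 (SE 0.68). The third probe set, 1422534_at, was dim and not tested, from 1 to 71.0 on amplified and 4.78 to 30.4 on nonamplified arrays.

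Dhcr7, the reductase of the last step to cholesterol, lay at the lowest value of the table on some amplified arrays and above every nonamplified array on others. Probe set 1448619_at ranged from 1 to 317 on amplified arrays (median 39.6) and from 118 to 139 on nonamplified arrays (median 125). Of the amplified arrays, 3 were listed at 1, 5 in all lay below the nonamplified range, 1 within and 2 above it. The log2 difference of −1.37 (SE 0.58) was not called. It was called lower without amplified replicate 2, 4 or 8 (−1.59, −1.74 and −1.56), with weights per group (−1.37) and with a pseudocount of 1 (−2.59).

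Over the 17 tested probe sets and 8 amplified arrays, 16 of 136 values fell inside the range of the 8 nonamplified arrays of that probe set, 84 below it and 36 above it. In 12 of the 17 probe sets, amplified arrays lay on both sides. These positions were not counted over all tested probe sets, so nothing particular to the 8 genes is read from them. The median SD on the log2 scale was 0.92 over the amplified and 0.086 over the nonamplified arrays for these probe sets. For all tested probe sets it was 0.51 over the amplified and 0.13 over the nonamplified arrays. All 17 had the larger SD on amplified arrays, as did 90.4% of all tested probe sets. An SD above 1 over the amplified arrays was found for 8 of the 17 and for 27.7% of all tested probe sets.

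Bright probe sets were those whose mean over nonamplified arrays was in the upper 50%, and a value of one under the 25th percentile of its array counted as a dropout. Of the 19 probe sets, 15 were bright enough. They gave 13 dropouts in 120 values on amplified arrays (10.8%) and 0 in 120 on nonamplified arrays. For all bright probe sets the share was 14.5% on amplified and 0.0538% on nonamplified arrays. Insig1 and Dhcr7 had 4 dropouts each, Cyp51 had 2 at 1422533_at and 1 at 1450646_at, and Fdft1 had 1 at each of its main probe sets. Hmgcs1, Idi1, Sqle and Srebf2 had 0. Each amplified array had 1 to 3 of them. Replicates 2 and 4 each lost only Insig1, and replicates 1 and 3 only Dhcr7. Amplified replicate 5, for example, lost Fdft1 and Dhcr7 while holding the highest Insig1 and Cyp51 1422533_at values.

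Whether probe sets of the same gene were high and low on the same amplified reactions was examined next, a relation the choice of genes did not use. Of 15 same-gene pairs of tested probe sets, 4 correlated over the 8 amplified arrays at a Benjamini-Hochberg value under 0.05 (exact 2-sided permutation over 40320 pairings). The share of such pairs over all tested genes was not computed, so nothing particular to the 8 genes is read from this count. The Fdft1 probe sets 1448130_at and 1438322_x_at had r = 0.99 and rho = 1 (exact permutation p = 2.48e-05 and 4.96e-05; Benjamini-Hochberg 0.000372 and 0.000744). The p of r is the smallest these pairings can give. Without the 2 arrays farthest from the median, r was 0.96. For Idi1 r was 0.98 and rho 0.90 (exact permutation p = 0.000372 and 0.00456; Benjamini-Hochberg 0.00279 and 0.0228), with r = 0.99 after leaving out the 2 farthest arrays. The nonamplified arrays gave r = 0.66 for that Fdft1 pair and 0.94 for Idi1, over much smaller ranges.

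**Figure D2:**
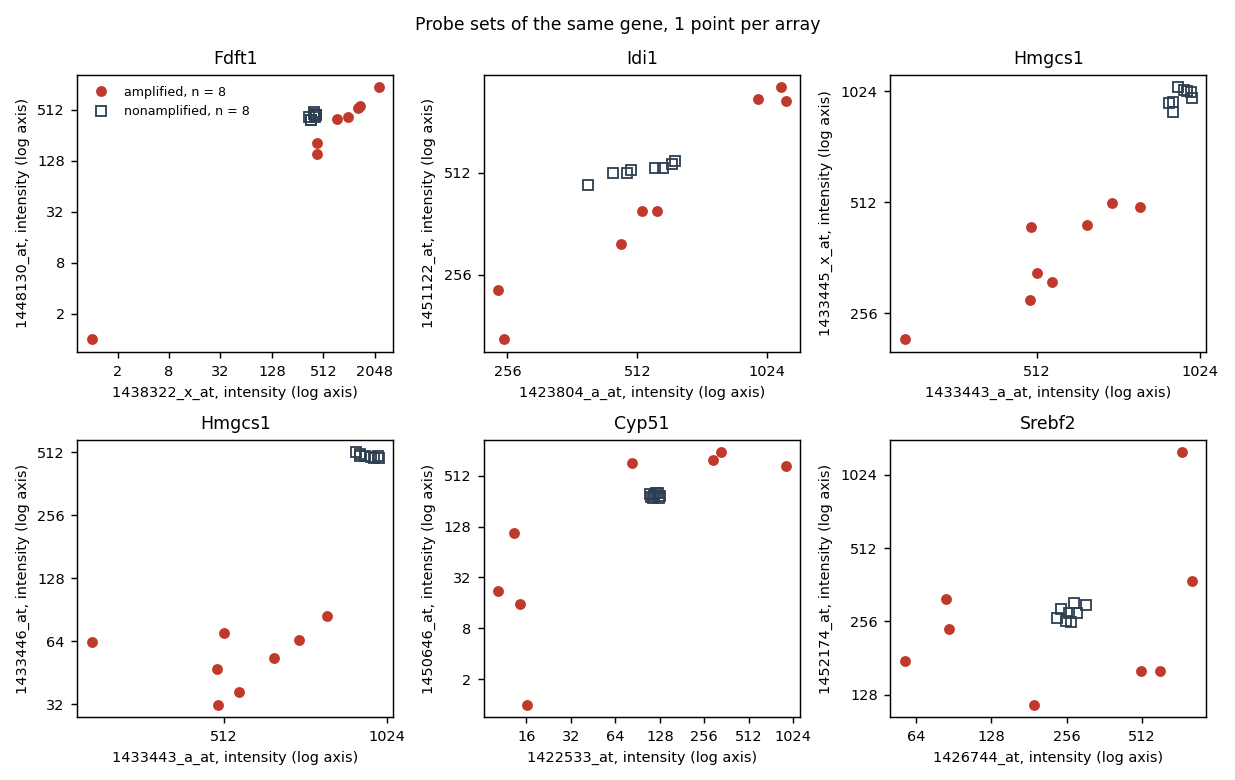
Intensities of pairs of probe sets of the same gene (both axes log, 1 point per array; red circles amplified, open squares nonamplified). Fdft1 and Idi1 probe sets rose and fell together over the amplified arrays, both Cyp51 probe sets were high on 3 amplified arrays and low on 4, and the Srebf2 pair scattered.

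Among the Hmgcs1 pairs, 1433445_x_at tracked 1433443_a_at (r = 0.88, rho = 0.88, exact permutation p = 0.00243 and 0.00724; Benjamini-Hochberg 0.0122 and 0.0272). It also tracked 1433444_at (r = 0.87, rho = 0.90, exact permutation p = 0.0112 and 0.00456; Benjamini-Hochberg 0.0421 and 0.0228). Without the 2 farthest arrays r was 0.72 and 0.95. The steeply lowered 1433446_at gave r of 0.14 to 0.27 with the other 3, not past the threshold (exact permutation, Benjamini-Hochberg 0.843 to 0.844). Both Cyp51 probe sets were high on replicates 1, 2 and 5 and low on replicates 4, 6, 7 and 8, while replicate 3 was high at 1450646_at (720) and, with 83.0, below the nonamplified range at 1422533_at. The Cyp51 pair gave r = 0.85 and rho = 0.64 (exact permutation p = 0.0207 and 0.0962; Benjamini-Hochberg 0.0622 and 0.206), not past the threshold, and r = 0.85 without the 2 farthest arrays. The Srebf2 probe sets gave r = 0.37 and rho = 0.31 (exact permutation p = 0.409 and 0.462; Benjamini-Hochberg 0.768 and 0.630). The dim Fdft1 probe sets were not called in any of their 5 pairs (r from −0.075 to 0.67). Probe sets of 1 gene can share probes or transcript ends, which was not examined here.

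The median r was 0.37 over the 15 same-gene pairs, and 0.16 over 14797 same-gene pairs of all tested genes. Over the 121 pairs of probe sets of different genes among the 8 it was −0.073, with a range of −0.81 to 0.78. All points come from the same 8 arrays, and these medians are a description.

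**Figure D3:**
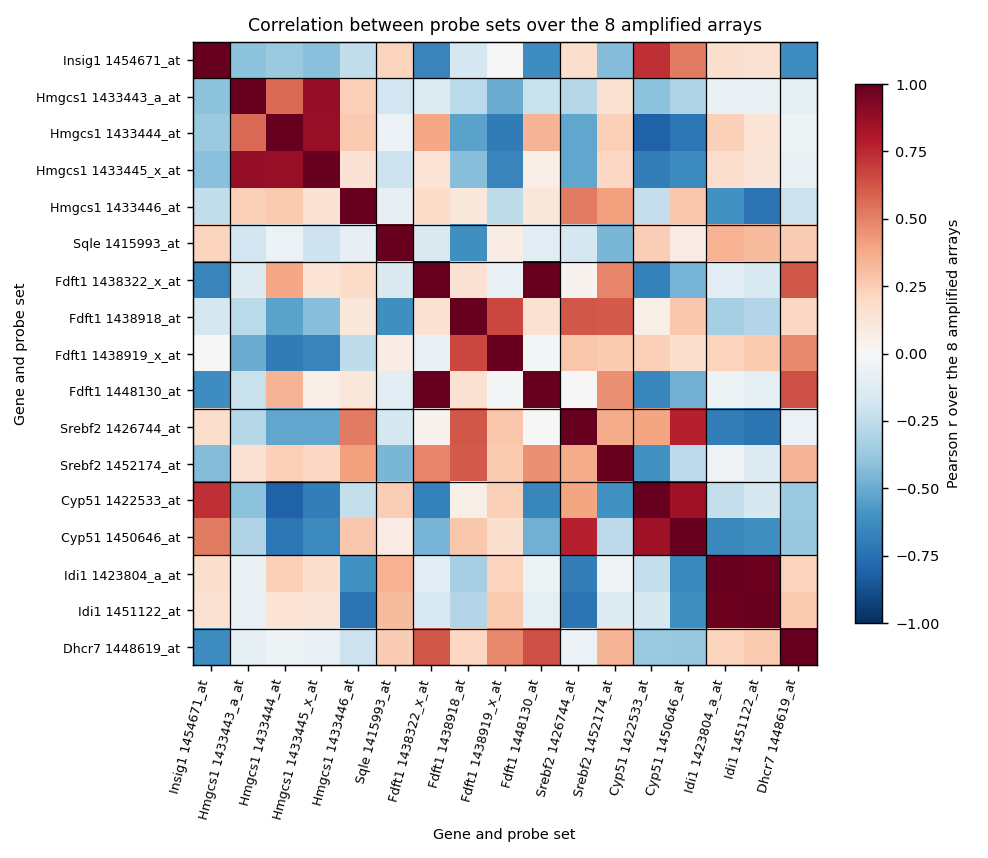
Pearson r over the 8 amplified arrays between the 17 tested probe sets (red positive, blue negative), with lines between genes. The deepest red off the diagonal line marks the main Fdft1 pair and the Idi1 pair, followed by Hmgcs1 1433445_x_at with 2 others and the Cyp51 pair, and the median r between different genes is −0.073.

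The probe sets of other genes most like Insig1 over the 8 amplified arrays were those of Kctd5 (r = 0.98), Ankrd13d (r = 0.97) and Cfap97 (r = 0.95), out of 22828 compared. Insig1 was listed at 1 on 4 of these arrays, and the points share those arrays. These r values are the highest of 22828 comparisons over 8 arrays and were not tested. No relation to Insig1 is read from them. Kctd5 ranged only from 340 to 534 on amplified arrays (nonamplified mean 529 ± 21.7, SD, n = 8). Cfap97 was dim, from 28.1 to 70.3 on amplified arrays (nonamplified mean 35.8 ± 2.43, SD, n = 8).

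Other genes of the route, outside the 8, were compared next, each through the probe set that averaged highest across all 16 arrays. Their lists were also chosen with earlier results of these arrays known. Genes are named below for a large difference without overlap or for brightness, so the p-values printed for them are descriptive. Of 46 listed genes 38 were tested and 8 were not analysed here. Of the 38, 9 were called higher and 9 lower in the amplified group (limma, adjusted over all tested probe sets). Among the lower, Msmo1, Nr1h3 and Acss2 passed the filter only through the nonamplified arrays. Among the higher, Lcat passed it only through the amplified arrays. Nothing is read from the calls of these genes. Over all 13660 tested genes 27.4% were called higher and 24.8% lower. The split depended on scaling. With each array centred on its median it was 12 higher and 5 lower. Taking each gene's probe set by its mean on nonamplified arrays alone, it was 6 higher and 14 lower.

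**Figure D4:**
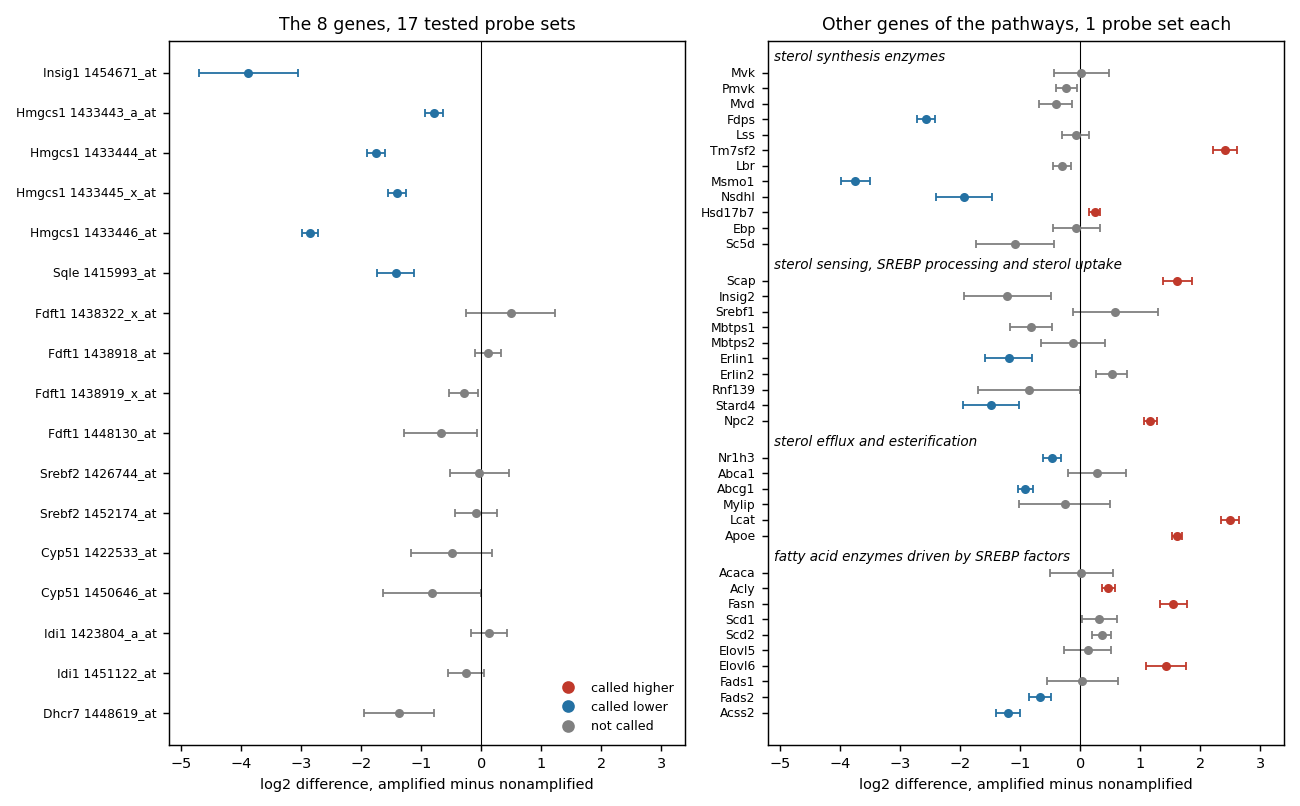
Log2 difference, amplified minus nonamplified, with SE bars from the limma fit (n = 8 arrays each), for the 17 tested probe sets of the 8 genes (left) and for 38 other genes of the pathways with 1 probe set each (right). Red marks called higher, blue called lower and grey not called. Of the right-hand genes 9 were higher and 9 lower, with Msmo1, Nr1h3, Acss2 and Lcat passing the filter through 1 group only.

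Among 12 sterol synthesis enzymes 2 were called higher, 3 lower and 7 not called, with a median log2 difference of −0.27. Msmo1, the methylsterol oxidase that follows Cyp51, averaged 17.2 ± 14.7 on amplified and 391 ± 21.6 on nonamplified arrays (SD, n = 8 each). It passed the filter only through the nonamplified arrays, so its call lower is given with no p, and its log2 difference ran from −5.14 to −2.50 with the pseudocount. Fdps, which makes farnesyl diphosphate for Fdft1, averaged 118 ± 37.3 on amplified and 748 ± 23.8 on nonamplified arrays (SD, n = 8 each; −2.57, SE 0.15, limma adjusted p = 2.93e-10). Nsdhl, of the same demethylation complex as Msmo1, was lower by a log2 difference of −1.94 (SE 0.47, limma adjusted p = 0.00193), which was −2.56 with a pseudocount of 1 and −1.26 with 64. Tm7sf2, a sterol reductase, moved the other way, with 445 ± 186 on amplified and 65.1 ± 5.56 on nonamplified arrays (SD, n = 8 each; 2.41, SE 0.20, limma adjusted p = 2.13e-08). Lbr, a nuclear envelope protein with the same reductase activity, averaged 1378 ± 389 on amplified and 1652 ± 69.9 on nonamplified arrays (SD, n = 8 each). Its log2 difference of −0.31 was not called (limma adjusted p = 0.0853), but it was called lower without amplified replicate 4 or 5 (−0.36 and −0.39) and under quantile normalization (−1.06).

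Among 10 genes of sterol sensing, SREBP processing and sterol uptake 2 were higher, 2 lower and 6 not called, with a median of −0.47. Scap, the escort that Insig1 holds back, averaged 1015 ± 531 on amplified and 285 ± 17.6 on nonamplified arrays (SD, n = 8 each; log2 difference 1.62, SE 0.25, limma adjusted p = 2.87e-05). Npc2, which carries cholesterol out of lysosomes, averaged 2148 ± 429 on amplified and 933 ± 31.5 on nonamplified arrays (SD, n = 8 each; 1.17, SE 0.11, limma adjusted p = 9.73e-08) at 1448513_a_at. Under quantile normalization that difference was 0.42, and Npc2 1416901_at was called lower (−0.52, limma adjusted p = 0.0375). Mbtps1, the first protease that cuts SREBP in the Golgi, averaged 389 ± 253 on amplified and 563 ± 18.2 on nonamplified arrays (SD, n = 8 each; limma adjusted p = 0.0603). At this probe set, 1448240_at, Mbtps1 was called lower without amplified replicate 3, 4, 5 or 7 (−0.98, −0.94, −0.98 and −0.90). It was also called lower with weights per group (−0.82) and under quantile normalization (−1.15). Mbtps1 1431386_s_at was called higher (0.45) and 1431385_a_at lower (−2.83). The last of these passed the filter only through the nonamplified arrays.

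Of 6 genes of sterol efflux and esterification 2 were higher and 2 lower. The lower call of Nr1h3 came from a probe set that passed the filter only through the nonamplified arrays. Lcat, which esterifies cholesterol in plasma, averaged 204 ± 52.6 on amplified and 22.6 ± 6.04 on nonamplified arrays (SD, n = 8 each). It passed the filter only through the amplified arrays, so its call higher is given with no p. Apoe, a lipoprotein component, averaged 6658 ± 927 on amplified and 2151 ± 81.1 on nonamplified arrays (SD, n = 8 each; 1.61, SE 0.091, limma adjusted p = 1.46e-10), a difference of 0.75 under quantile normalization. Abcg1, a sterol exporter, was lower, with 322 ± 67.4 on amplified and 614 ± 61.3 on nonamplified arrays (SD, n = 8 each; −0.92, SE 0.12, limma adjusted p = 5.52e-06).

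Among 10 fatty acid enzymes that SREBP factors drive 3 were higher, 2 lower and 5 not called, with a median of 0.22. The lower call of Acss2 came from a probe set that passed the filter only through the nonamplified arrays. Fasn, fatty acid synthase, averaged 3758 ± 1657 on amplified and 1167 ± 73.4 on nonamplified arrays (SD, n = 8 each; log2 difference 1.55, SE 0.23, limma adjusted p = 1.67e-05), again 0.75 under quantile normalization. Acly, which supplies cytosolic acetyl-CoA, had 1981 ± 345 on amplified and 1407 ± 61.7 on nonamplified arrays at the probe set compared (SD, n = 8 each). Its log2 difference of 0.47 (limma adjusted p = 0.00120) turned to −0.31 under quantile normalization. Acly 1451666_at was called lower (−0.94, limma adjusted p = 1.24e-08), as was 1425326_at (−4.41). The latter passed the filter only through the nonamplified arrays, so its call is given with no p.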

How the data were processed

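Affymetrix arrays of 1 preparation of mouse embryonic stem cell RNA were compared, 8 amplified and 8 nonamplified. Per the labels' protocols, RNA was prepared with a silica column kit and biotinylated cRNA by the one-cycle assay. The deposited table gives 1 linear intensity per probe set and array, with software and scaling not given in the sources used here. Precision is limited by the number of arrays.

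Of 45101 probe sets, 64 controls were left out. Symbols came from the platform annotation, updated through gene identifiers of the RefSeq table (GRCm38.p6): 34945 probe sets had 1 symbol, 932 several and 9160 none here. Values were analysed as log2(intensity + 16), keeping probe sets with a mean log2 value above the 40th percentile (intensity about 33.7). The comparison used limma 3.58.1 (lmFit, then eBayes; R 4.3.3), 2-sided, with Benjamini-Hochberg adjustment, and the fit was tested on simulated data. Correlations used exact permutation in Python 3.11.15. The genes, lists and tests were chosen with earlier results of these data known. Of the pathway lists, the text names up to 6 genes each by absolute log2 difference among those called without overlap, and the 2 brightest nonamplified. The settings varied were the pseudocount (1 and 64), the scaling (quantile normalization, centring on the median, the brighter 50%), the filter, weights per group, a replicate block, other choices of probe set, dropout percentiles of 10 and 40, and leaving out each array.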

Additional observations from a re-analysis of the deposited data

Results flagged for a closer look

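In 38 groups of 8 arrays (19 probe sets, each kind of array), an array far from the rest on the log2 scale was sought. Such an array was found in 4 groups, all of them amplified. The mark used flags about 5% of groups when values are independent and normally spread. Here some amplified values lie at 1 and probe sets of 1 gene can move together, so the 4 are not set against that share. Both main Fdft1 probe sets were at 1 on amplified replicate 5, against next lowest values of 435 at 1438322_x_at and 155 at 1448130_at. At Hmgcs1 1433443_a_at amplified replicate 1 had 293, against a next lowest value of 499. At the dim Hmgcs1 probe set 1441536_at amplified replicate 2 had 19.0, against a next highest value of 6.09.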

How the results depend on the processing

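The 6 called probe sets of Insig1, Hmgcs1 and Sqle were called lower under every alternative run. Counts of called probe sets among the 8 genes ranged from 6 to 7, and counts of other pathway genes from 15 to 21. Over all probe sets 15543 were called, and 10148 when the filter was set at the 60th percentile, leaving fewer to test. With each array centred on its median 63.2% of all calls were higher, with the brighter 50% as scale 54.1%, and as deposited 43.0%; the median log2 difference of all tested probe sets was then 0.24, 0.045 and −0.17. Same-numbered arrays of the 2 groups did not deviate together (r from −0.0078 to 0.018). With the replicate number as a block 14856 probe sets, 6 of the 8 genes' probe sets and 17 pathway genes were called. Acly reversed under quantile normalization (−0.31), and the cause was not tested. One same-gene pair, Hmgcs1 1433444_at with 1433445_x_at, missed the threshold under quantile normalization (r = 0.89, Benjamini-Hochberg 0.0585 by exact permutation). Dropouts of the 8 genes numbered 10 and 17 with percentiles of 10 and 40, against 13.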

Other observations

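Probe sets of other genes of these pathways also disagreed within a gene. Of 18 such genes with at least 2 tested probe sets, 5 (Acly, Fads2, Hsd17b7, Mbtps1 and Npc2, chosen after their values were seen) had 1 or more probe sets called higher and 1 or more called lower. Neither this count nor the ranges below were set against all tested genes, so nothing particular to these pathways is read from them. For Hsd17b7 and Mbtps1 the lower calls came only from probe sets that passed the filter through the nonamplified arrays alone. The range of log2 differences within a gene had a median of 1.10. Acly had the widest range of these genes, from −4.41 at 1425326_at, with 33.8 ± 9.69 on amplified and 1023 ± 40.5 on nonamplified arrays (SD, n = 8 each), to 0.91 at 1439445_x_at. Probe set 1425326_at passed the filter only through the nonamplified arrays. Scd2, a stearoyl-CoA desaturase also chosen after its values were seen, ranged from −3.01 to 0.35. The −3.01 came from 1415823_at, which passed the filter only through the nonamplified arrays. For Stard4, a carrier of cholesterol between membranes, all 3 probe sets were called lower, from −2.53 to −1.49. Of these, 1429240_at and 1455011_at passed the filter only through the nonamplified arrays, so nothing is read from the agreement.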
